A study of Mus musculus with 15 samples.

Results

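The genes examined here serve 3 routes by which cells fold plasma membrane inward. Cav1, Cav2, Cavin1, Cavin3, Pacsin2 and Ehd1 belong to caveolae, Flot1 and Flot2 to flotillin domains, and Cltc and Dnm2 to clathrin-coated pits. They were chosen by name and role, at a time when earlier results of these data were known, and their symbols were matched to Ensembl mouse gene identifiers. All 10 were found among the 57186 genes of the count table, and 9 of them were among the 19839 genes tested. Cavin3 was not tested, since it had 1 count in 1 SNP50-treated library and 0 counts in the other 14 libraries.

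Caveolae are flask-shaped pits built from caveolin proteins in the membrane and a cavin coat on its inner face. PACSIN and EHD proteins shape and hold the neck of the pit, flotillins form separate membrane domains, and clathrin assembles into a lattice around pits that dynamin cuts free. Macrophages take in large material mainly by phagocytosis and macropinocytosis, and they run clathrin-mediated endocytosis all the time.

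RNA was sequenced from RAW 264.7 cells, an established mouse macrophage line, after 6 h with or without silica nanoparticles. SNP100 are solid nonporous particles of 100 nm nominal diameter given at 50 µg/mL, and SNP50 are solid nonporous particles of 50 nm given at 25 µg/mL. MSNP are mesoporous particles of 100 nm and HMSNP are hollow mesoporous particles of 100 nm, both given at 200 µg/mL. Doses were the highest that left the cells without toxicity. The fifth group is the nontreated control, and all groups share the cell line and the time. Each group has 3 libraries, 15 in all, with total counts between 29369934 and 42617812 per library. The labels do not state that the 3 libraries came from separate cultures, so p-values measure the spread between these libraries, which may be technical. Library names carry a separate number for each group, so whatever came with that number cannot be told apart from the treatment. The 10 macrophage markers examined, among them Csf1r, Cd68 and Lyz2, had at least 103 counts in every library, while Col1a2, Dcn and Lum of fibroblasts and Epcam, Krt18 and Krt19 of epithelium were at 0. Of the endothelial markers Emcn was at 0, whereas Vwf had 86 to 364 counts and Cdh5 4 to 16 counts per library. Control replicate 3 stood apart in its trend with transcript length. Genes of the shortest transcripts had a median log2 difference of 0.58 from the mean of all libraries, and those of the longest -0.76. Control replicate 2, MSNP replicates 1 and 2 and all 3 HMSNP libraries tilted the other way, less strongly. The HMSNP medians were -0.18 to -0.15 for the shortest and 0.09 to 0.22 for the longest. SNP50 replicate 1 tilted as Control replicate 3 did, at 0.26 and -0.18.

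The 10 genes were read at very different levels in nontreated cells. On a scale per transcript length (RPKM, counts per kilobase of the canonical transcript, scaled to library size), clathrin heavy chain Cltc was at 95.5 ± 35.4 (SD, n = 3), the membrane-bending gene Pacsin2 at 44.9 ± 7.44 and the scission GTPase Dnm2 at 40.8 ± 5.86. The ATPase gene Ehd1 followed at 26.5 ± 2.36 RPKM and Flot2 at 11.1 ± 0.883 RPKM. Cav2 was at 4.91 ± 0.121 RPKM, Flot1 at 2.21 ± 0.385 and Cav1 at 1.48 ± 0.177. Cavin1, which encodes the coat protein that caveolae need, was at 0.0381 ± 0.0103 RPKM, and Cavin3 was at 0 in all 3 controls. Pacsin2 and Dnm2 differed by less than their spread, whereas Cav2, Flot1 and Cav1 each lay apart from Flot2 and Ehd1 above them. In bulk RNA, fewer expressing cells and less RNA per cell cannot be told apart.

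**Figure D1:**
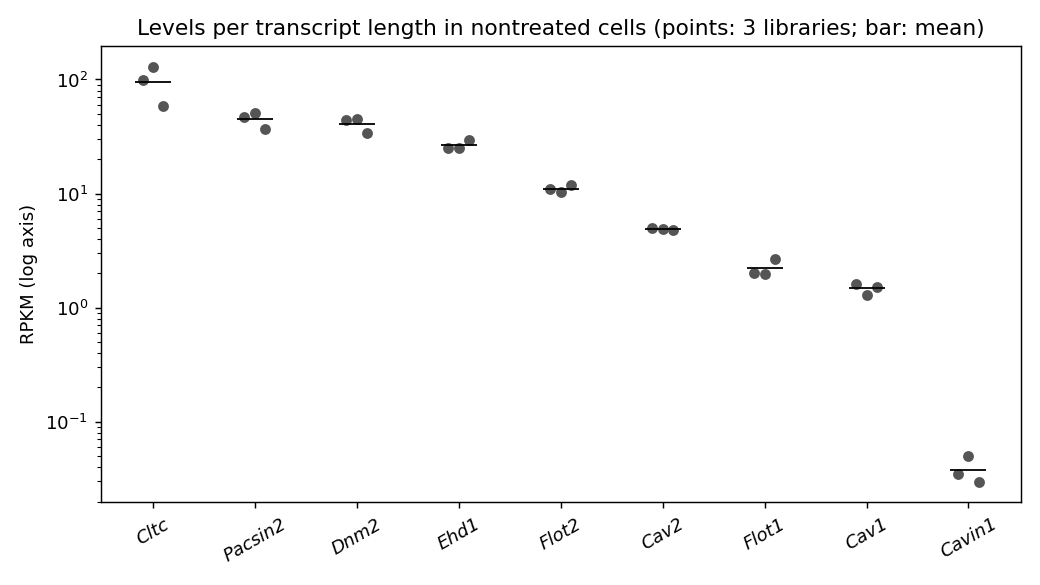
Level of 9 genes in the 3 nontreated control libraries, in RPKM on a log axis, with a point per library and a line at the mean; Cavin3, at 0, is not drawn. Means ran from 95.5 for Cltc to 0.0381 for Cavin1.

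Against the nontreated controls, Cav1 fell with each of the 4 particles, and neither flotillin gene was called. With MSNP, Cav1, Cav2 and Ehd1 fell and Dnm2 rose, 4 of the 9 tested genes, where 22.8% of all tested genes were called (edgeR's quasi-likelihood test, Benjamini-Hochberg adjustment over all 19839 genes, adjusted p under 0.05). With SNP50, 3 of the 9 genes fell, namely Cav1, Cav2 and Ehd1, and 1.41% of all genes were called. With SNP100 and with HMSNP, Cav1 alone fell, beside 0.912% and 5.16% of all genes called. Called genes in each direction were 0.509% higher and 0.403% lower of all genes with SNP100, 0.454% and 0.958% with SNP50, 11.8% and 11% with MSNP, and 2.46% and 2.7% with HMSNP. These shares moved with single controls: the share of all genes called was 18.9% with SNP50 and 5.16% with SNP100 without Control replicate 3, and 25.2% with HMSNP without Control replicate 2. With filterByExpr, a stricter filter on low counts, 14284 genes were tested. The share called was then 1.85% with SNP100, 2.86% with SNP50, 33.1% with MSNP and 8.97% with HMSNP. Groups of libraries did not overlap for 4 of the 9 genes with SNP100, 3 with SNP50, 5 with MSNP and 3 with HMSNP, where 12.5%, 14.1%, 33.2% and 22.9% of all genes showed such separation. Cavin1, with very few counts per library, was among the separated genes with SNP100, MSNP and HMSNP. These 4 comparisons share the same 3 control libraries, so they are not independent of each other.

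**Figure D2:**
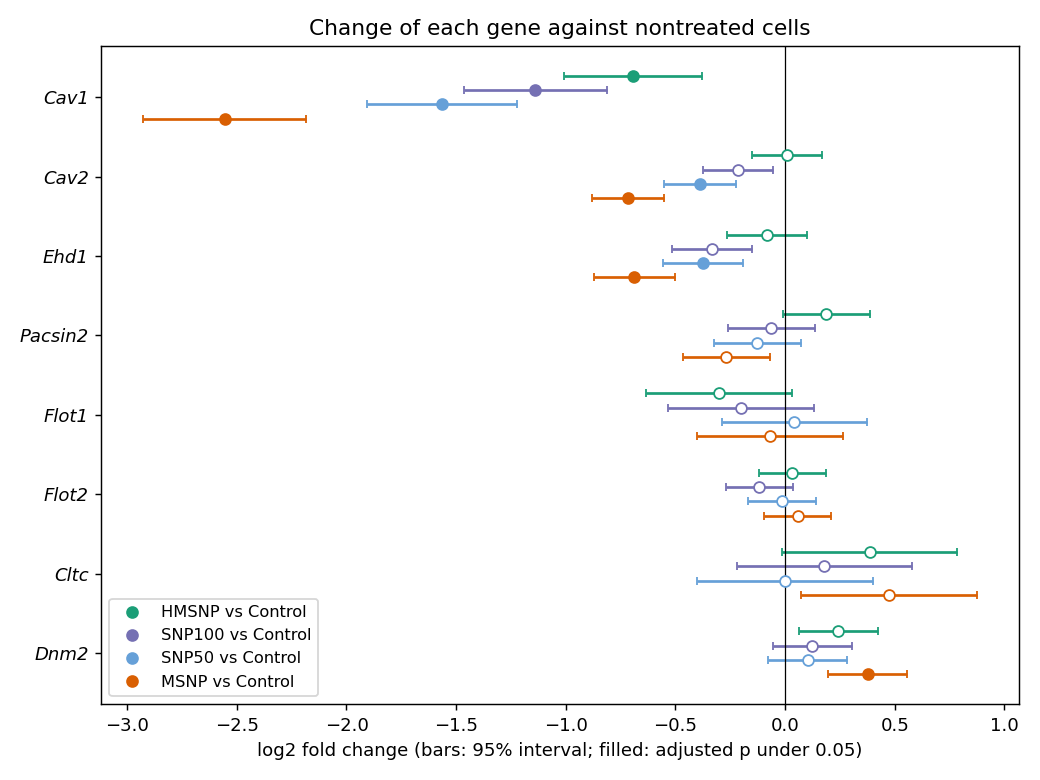
Log2 difference of each treated group from the nontreated control for 8 tested genes (Cavin1, at 6 counts or fewer, is left out), with 95% intervals and filled marks for differences past the test. Cav1 lay lowest with MSNP at -2.56, and the flotillin genes lay between -0.30 and 0.06 in all 4 groups, with no filled mark.

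Cav1 encodes caveolin-1, the main structural protein of caveolae, and Cav2 encodes its partner caveolin-2. They are neighbours on the plus strand of mouse chromosome 6 (GRCm39), Cav2 (ENSMUSG00000000058) at chr6:17281026-17289877 and Cav1 (ENSMUSG00000007655) at chr6:17306140-17341451. Their promoters are shown because both genes were called lower with MSNP and lie next to each other. The sequences are from RefSeq on GRCm39, span 250 bases before to 50 bases after the start, and read 5′ to 3′ on the plus strand at chr6:17306084-17306383 for Cav1 and chr6:17280934-17281233 for Cav2.
Cav1 promoter: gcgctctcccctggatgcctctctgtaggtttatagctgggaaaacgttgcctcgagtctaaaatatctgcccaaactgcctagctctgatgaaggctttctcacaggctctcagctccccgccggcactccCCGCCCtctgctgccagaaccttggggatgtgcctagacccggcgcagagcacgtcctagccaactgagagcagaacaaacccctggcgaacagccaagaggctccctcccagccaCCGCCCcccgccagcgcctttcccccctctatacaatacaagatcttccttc
Cav2 promoter: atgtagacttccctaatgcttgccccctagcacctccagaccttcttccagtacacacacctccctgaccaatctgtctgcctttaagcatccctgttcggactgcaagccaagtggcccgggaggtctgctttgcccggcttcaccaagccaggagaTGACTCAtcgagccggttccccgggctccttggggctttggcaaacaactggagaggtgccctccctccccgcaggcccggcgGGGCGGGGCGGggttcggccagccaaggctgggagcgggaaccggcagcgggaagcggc
Capitals mark the motifs searched on both strands: GGGCGG (GC box, on the minus strand where CCGCCC is printed), TGANTCA (AP-1), CACGTG (E-box) and TCACGTGA (the CLEAR core, which contains the E-box). RefSeq lists a second Cav1 promoter, at chr6:17307389-17307688, which holds none of the 4 motifs and is not printed. Motif places are counted from the RefSeq start, which for both genes lies inside the gene interval given above from another annotation, GENCODE. The marked motifs of both windows also lie inside those intervals. The first Cav1 window holds GC boxes that begin 118 and 2 bases before the RefSeq start. The Cav2 window holds GC boxes that begin 9 and 4 bases before the RefSeq start, and an AP-1 match 92 bases before it. Among 32851 mouse promoters of this length, GGGCGG occurs in 35.7%, TGANTCA in 7.81%, CACGTG in 7.15% and TCACGTGA in 0.974%. These matches describe the letters of the windows only. Of the 10 genes, 7 had a promoter in the RefSeq table, and Cavin3, Flot1 and Ehd1 did not.

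Cav1 was lower than in the controls in all 12 treated libraries. On the scale of CPM (counts scaled to library size and adjusted for library composition), the controls were at 4.63, 3.64 and 4.32, and the MSNP-treated libraries at 0.562, 0.675 and 0.889, from 17, 25 and 30 counts. The SNP50-treated libraries were at 1.38, 1.36 and 1.5, the SNP100-treated libraries at 2.08, 1.71 and 1.91, and the HMSNP-treated libraries at 2.26, 2.94 and 2.57. No treated library reached the lowest control. Ordered by these same Cav1 values as control, HMSNP, SNP100, SNP50 and MSNP, groups next to each other did not overlap. That order is a description only. HMSNP was not tested against SNP100, and Cav1 was not called for SNP50 against SNP100 (edgeR adjusted p = 0.903). The log2 difference from the controls was -2.56 (SE 0.174, adjusted p = 3.35e-08 by edgeR's quasi-likelihood test) with MSNP, a level 5.88-fold below the controls. It was -1.57 (SE 0.160, adjusted p = 0.000375, same test) with SNP50 and -1.14 (SE 0.152, adjusted p = 0.00186, same test) with SNP100. With HMSNP it was -0.69 (SE 0.148, adjusted p = 0.0134 by edgeR's quasi-likelihood test), a 1.62-fold lower level. When edgeR was fitted to only the 6 libraries compared, the adjusted p of Cav1 was 0.102 with SNP50, 0.276 with SNP100 and 0.206 with HMSNP, in fits that called 1, 0 and 77 genes of the table. The HMSNP call was also lost without HMSNP replicate 1 (edgeR adjusted p = 0.0858) and without HMSNP replicate 3 (0.0541).

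**Figure D3:**
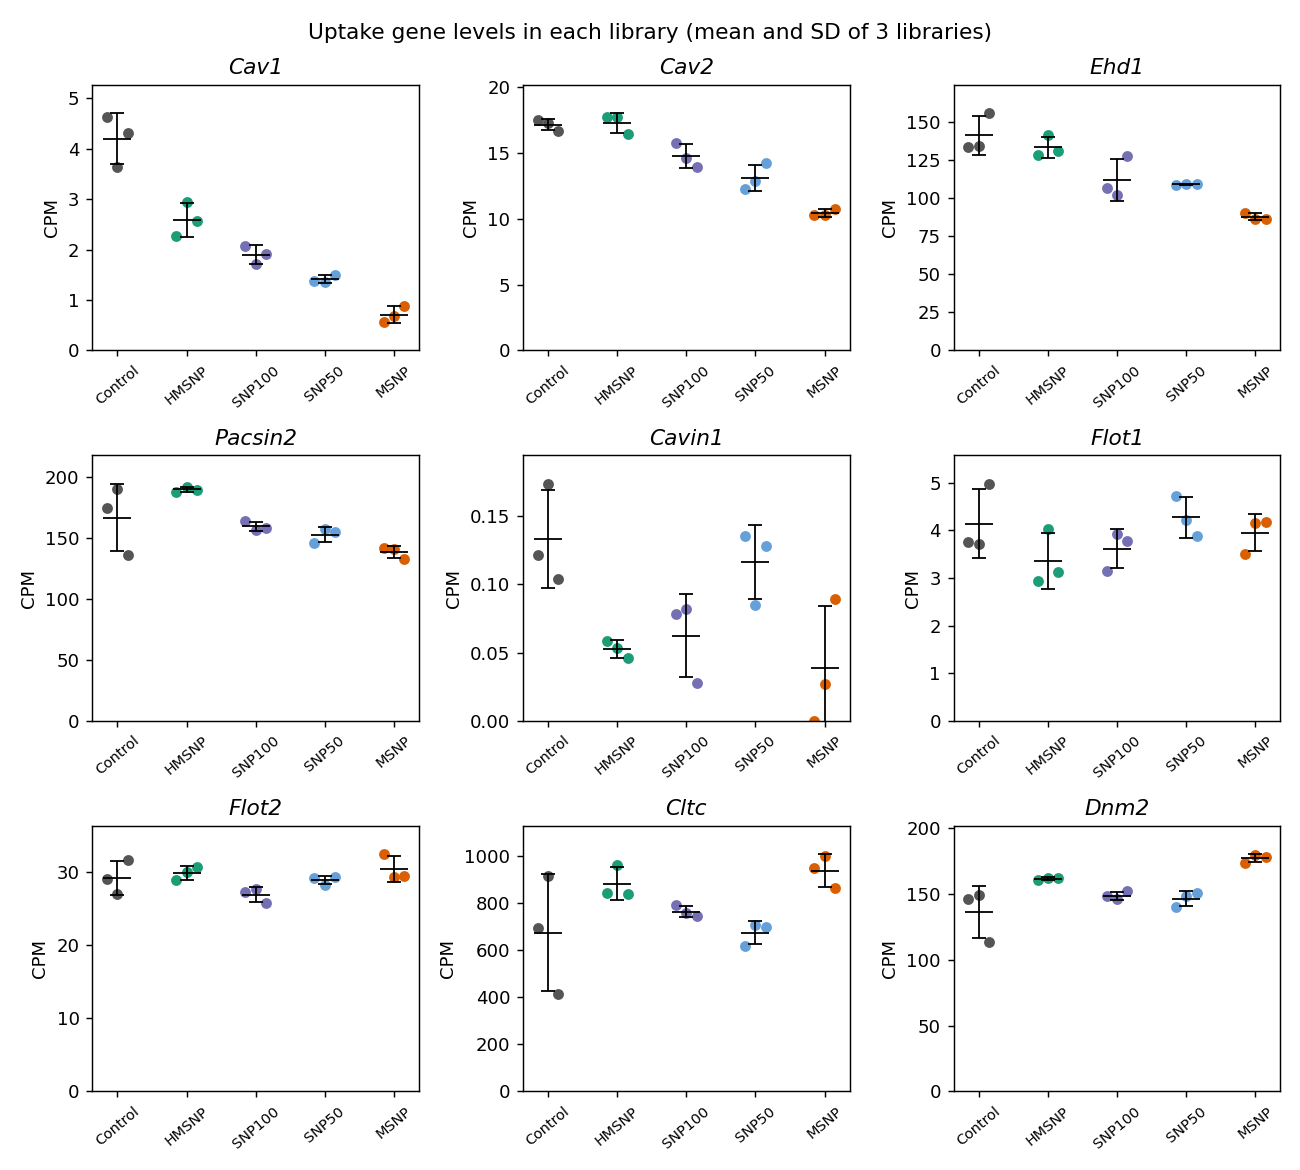
CPM of the 9 tested genes in each of the 15 libraries, as points, with group means and SD (n = 3). Cav1 fell from 4.20 ± 0.504 CPM in controls to 0.709 ± 0.166 CPM with MSNP, while the flotillin genes overlapped between MSNP-treated and control libraries.

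Cav2 was lower with MSNP and SNP50 and lay at the control level with HMSNP. Controls were at 17.5, 17.3 and 16.7 CPM, and MSNP-treated libraries at 10.2, 10.3 and 10.8 CPM. SNP50-treated libraries were at 12.2, 12.9 and 14.2 CPM, SNP100-treated libraries at 15.7, 14.6 and 14, and HMSNP-treated libraries at 17.7, 17.7 and 16.4. The MSNP, SNP50 and SNP100 libraries all lay below the controls, while the HMSNP libraries overlapped them. Cav2 fell by 0.72 on the log2 scale with MSNP (SE 0.0770, edgeR adjusted p = 4.66e-06) and by 0.39 with SNP50 (SE 0.0762, edgeR adjusted p = 0.0200). With SNP100 the log2 difference was -0.21 (edgeR adjusted p = 0.303), and with HMSNP it was 0.01 with a 95% interval from -0.15 to 0.17. The SNP50 call of Cav2 was past the threshold in 14 of 22 alternative analyses and was lost without Control replicate 1, SNP50 replicate 1 or 2, or MSNP replicate 1 or 2, with no filter on low counts, with only the 6 libraries, and with the replicate block (edgeR adjusted p = 0.0522).

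Ehd1 encodes an ATPase that stabilises membrane necks and recycles endosomal membrane, and Pacsin2 encodes a membrane-bending protein found at caveolae. Ehd1 was at 133, 134 and 156 CPM in the controls and at 90.4, 86.4 and 86.1 CPM with MSNP. It was at 108, 109 and 109 CPM with SNP50, at 107, 102 and 127 CPM with SNP100, and at 128, 141 and 131 CPM with HMSNP. All MSNP, SNP50 and SNP100 libraries lay below the lowest control, and the HMSNP libraries overlapped the controls. Ehd1 fell by 0.69 on the log2 scale with MSNP (SE 0.0859, edgeR adjusted p = 2.24e-05) and by 0.37 with SNP50 (edgeR adjusted p = 0.0482). Its log2 difference was -0.33 with SNP100 (edgeR adjusted p = 0.0953) and -0.08 with HMSNP (0.583). The SNP50 call of Ehd1 stayed past the threshold in only 7 of 22 alternative analyses. It was lost on leaving out Control replicate 1, SNP100 replicate 1 or any single SNP50, MSNP or HMSNP library, with no filter, with only the 6 libraries, with the length offset and with the replicate block. Without Control replicate 3 the SNP100 difference of Ehd1 passed (edgeR adjusted p = 0.0456).

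Pacsin2 was not called against the controls with any particle. Controls were at 174, 190 and 136 CPM, MSNP-treated libraries at 142, 141 and 133, and HMSNP-treated libraries at 188, 192 and 189. The control range was wide enough to contain all of the SNP100 and SNP50 libraries. Its log2 difference was -0.27 with MSNP (edgeR adjusted p = 0.0517) and 0.19 with HMSNP (0.230). Control replicate 3 lay 0.42 below the other controls on the log2 scale, and without it the MSNP difference was -0.39 (edgeR adjusted p = 1.09e-05), the SNP50 difference -0.26 (0.00213) and the SNP100 difference -0.19 (0.0394). Without Control replicate 2 the HMSNP difference of Pacsin2 was 0.31 (edgeR adjusted p = 0.0230).

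The cavin genes were at or near the limit of detection. Cavin1 had 4, 6 and 4 counts in the controls, 3, 3 and 1 with SNP100, 4, 3 and 4 with SNP50, 0, 1 and 3 with MSNP, and 2, 2 and 2 with HMSNP. No fold change is given at counts this low, and Cavin1 was not called in any of the 7 comparisons. It passed the threshold with MSNP when MSNP replicate 3, the MSNP library with 3 counts, was left out (edgeR adjusted p = 0.0265). Cavin2 and Cavin3 each had 1 count summed over the 15 libraries, and the muscle caveolin gene Cav3 had 0.

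Flot1 and Flot2 encode the scaffold proteins of flotillin domains. Flot2 was at 29.1, 27 and 31.6 CPM in the controls and at 32.5, 29.4 and 29.5 CPM with MSNP. Flot1 was at 3.75, 3.70 and 4.97 CPM in the controls and at 3.50, 4.16 and 4.18 CPM with MSNP. The MSNP and control libraries overlapped for both genes. No flotillin gene was called in any of the 7 comparisons, with log2 differences from the controls between -0.12 and 0.06 for Flot2 and between -0.30 and 0.04 for Flot1. For MSNP against SNP100, Flot2 libraries did not overlap and lay 0.17 higher (95% interval 0.02 to 0.33, edgeR adjusted p = 0.121). Flot2 passed the threshold in that comparison in 4 of 22 alternative analyses. The edgeR 95% intervals with MSNP were -0.10 to 0.21 for Flot2 and -0.40 to 0.26 for Flot1. Flot1 shares 24.4% of its exon bases with the antisense gene Tubb5, which was at 1719 CPM in the controls. Since the sources do not say whether counting used strand, reads of the pair cannot be told apart.

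Cltc and Dnm2 lay highest with MSNP, opposite in direction to the caveolar genes. Dnm2 was at 146, 149 and 114 CPM in the controls, at 174, 179 and 178 CPM with MSNP and at 160, 162 and 162 CPM with HMSNP. The SNP100 libraries were at 148, 146 and 152 CPM and the SNP50 libraries at 140, 149 and 150 CPM. All MSNP and HMSNP libraries lay above the highest control, and the SNP50 and SNP100 groups reached into the control range. Dnm2 rose by 0.38 on the log2 scale with MSNP (SE 0.0838, edgeR adjusted p = 0.00382), and its difference was 0.24 with HMSNP (0.108), 0.12 with SNP100 and 0.10 with SNP50. With only the 6 MSNP and control libraries fitted, the edgeR adjusted p of Dnm2 was 0.0977.

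Cltc was at 693, 913 and 415 CPM in the controls, the widest control range in CPM among the 10 genes. MSNP-treated libraries were at 946, 1000.3 and 863 CPM, HMSNP-treated libraries at 840, 961 and 839, SNP100-treated libraries at 789, 757 and 743, and SNP50-treated libraries at 617, 704 and 699. Control replicate 2 overlapped the MSNP and HMSNP libraries, while Control replicate 3 lay below every other library. The log2 difference of Cltc was 0.48 with MSNP (edgeR adjusted p = 0.0838) and 0.39 with HMSNP (0.222), neither past the threshold. Without Control replicate 2 these were 0.76 (edgeR adjusted p = 0.00205) and 0.68 (0.00995), and without Control replicate 3 they were 0.23 and 0.13, with neither called. Cltc has a long transcript, and Control replicate 3 was 0.94 lower in Cltc and 0.38 lower in Dnm2 than the other controls on the log2 scale. With an offset for the trend with transcript length, Cltc was 0.32 higher with MSNP (edgeR adjusted p = 0.00429), and with the replicate block it was 0.51 higher (0.0463).

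HMSNP and MSNP share nominal diameter, dose and time and differ in the hollow core and, by the study's account, in density and surface composition. All 4 called genes, Cav1, Cav2, Ehd1 and Pacsin2, were higher with HMSNP, 4 of 9, where 20.2% of all tested genes were called, 9.22% higher and 11% lower. Cav1 was 3.63-fold higher with HMSNP (log2 difference 1.86, SE 0.178, edgeR adjusted p = 1.49e-06). Cav2 was higher by 0.73 (edgeR adjusted p = 4.32e-06), Ehd1 by 0.61 (8.45e-05) and Pacsin2 by 0.45 (0.00217) on the log2 scale. HMSNP and MSNP libraries did not overlap for 5 of the 9 genes, namely these 4 and Dnm2, against 45.3% of all genes. Dnm2 differed by -0.13 (edgeR adjusted p = 0.329, 95% interval -0.31 to 0.05), Cltc by -0.09 (interval -0.49 to 0.31), Flot1 by -0.23 (-0.57 to 0.10) and Flot2 by -0.02 (-0.18 to 0.13). All 4 calls remained in each of 22 alternative analyses.

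**Figure D4:**
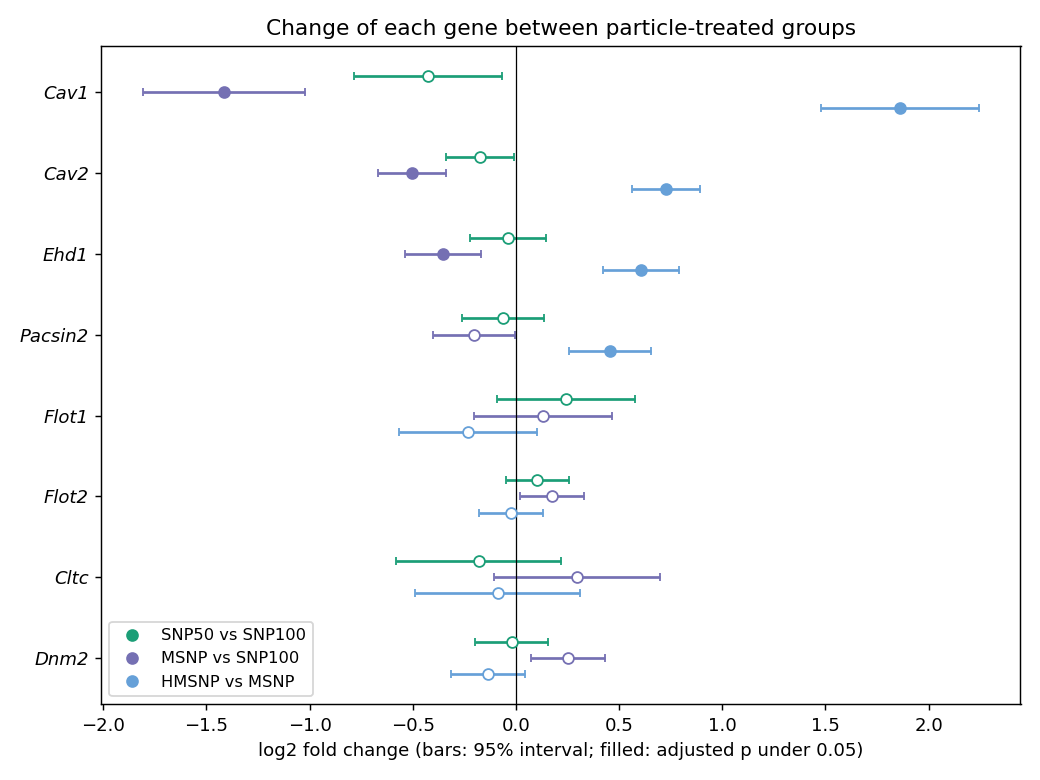
Log2 differences between particle groups for 8 tested genes without Cavin1, with 95% intervals and filled marks for differences past the test. Cav1, Cav2, Ehd1 and Pacsin2 lay above 0 for HMSNP against MSNP, and no gene was past the test for SNP50 against SNP100.

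MSNP and SNP100 share nominal diameter but were given at 200 and 50 µg/mL, so porosity and dose cannot be told apart. Cav1, Cav2 and Ehd1 were lower with MSNP, 3 of the 9 genes, where 17.9% of all tested genes were called, 10.4% higher and 7.53% lower. Their log2 differences were -1.42 (edgeR adjusted p = 4.20e-05), -0.50 (0.000216) and -0.35 (0.00881), and the Ehd1 call was lost without SNP100 replicate 3 (0.0550). Dnm2 lay 0.25 higher with MSNP (edgeR adjusted p = 0.0501). MSNP and SNP100 libraries did not overlap for 7 of the 9 genes, against 45.6% of all genes. Without Control replicate 3, which is in neither group but adds to the shared spread, 7 of the 9 genes were called, and so were 33.1% of all genes.

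SNP50 and SNP100 differ in diameter and in dose, 25 against 50 µg/mL, and none of the 9 genes was called between them. No gene of the whole table was called either (edgeR, 0% of 19839), while DESeq2 called 1 and edgeR without Control replicate 3 called 85, and 867 genes including Cav1 and Cav2 had an unadjusted p under 0.05. Cav1 was 0.43 lower with SNP50 (95% interval -0.78 to -0.07, edgeR adjusted p = 0.903) and Cav2 was 0.17 lower (-0.34 to -0.01) on the log2 scale. The 2 groups did not overlap for 4 of the 9 genes, against 23.9% of all genes. These were Cav1, Flot2, Cltc and Cavin1, the last with very few counts per library.

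Related genes of the same routes were taken as 8 lists of 91 symbols, which include the 10 genes above. Of the symbols, 90 were in the table and 82 were tested. In the caveola list, 6 of 10 tested genes fell with MSNP and none rose, with a median log2 difference of -0.85 beside -0.05 over all tested genes. Besides Cav1, Cav2 and Ehd1 these were Ehd2, an ATPase of the caveolar neck, at 13.3 ± 0.410 CPM against 26.4 ± 2.02 in the controls, and Cavin4 and Pacsin1, which stayed below 1 CPM. These 6 were 60% of the list, beside 22.8% of all genes and 33.1% of genes kept by filterByExpr. Of the 10 tested genes of the list, 5 were already given above. The list medians include Cavin1, Cavin4, Pacsin1 and Pacsin3, each with a mean below 1 CPM. Ehd4 was not called with MSNP (log2 difference 0.12). With HMSNP against MSNP, 6 of the 10 were higher and none lower (60%), with a median of 0.62 beside 0.004 over all tested genes. Of all genes 20.2% were called, 9.22% higher and 11% lower, and 28.7% were called with filterByExpr. The 6 were Cav1, Cav2, Ehd1 and Pacsin2, already given above, with Ehd2 and Ehd4. Ehd4 rose with HMSNP against the controls, from 183 ± 18.6 to 261 ± 8.21 CPM, while Ehd2 fell to 20.6 ± 1.31 CPM, a call kept in 6 of 22 alternative analyses. The Pacsin1 call with MSNP was kept in 13 of 21.

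Clathrin, scission and early endosome lists had calls in the other direction with MSNP. Of 8 tested clathrin chain and AP-2 genes, Cltb and Ap2a1 rose and none fell, 25% of the list and close to the 22.8% of all genes. Of 9 tested dynamin and scission genes, 4 rose and none fell (44.4%): Dnm2, the endophilin genes Sh3gl1 and Sh3gl3, and the sorting nexin gene Snx33, which went from 8.73 ± 1.19 to 20.8 ± 1.41 CPM. Sh3gl3 was at 0 in all controls and at a mean of 0.111 CPM with MSNP, so no fold is given. Of 14 early endosome genes, 6 rose and none fell (42.9%), among them the tether gene Eea1, from 131 ± 64.3 to 269 ± 18.2 CPM, and Stam2, from 45.1 ± 5.10 to 81.0 ± 3.14 CPM. Hspa8, whose chaperone strips the clathrin coat, rose with MSNP, SNP50 and HMSNP, and its SNP50 call was lost without any single SNP50 library. Among clathrin adaptor genes, Itsn1 and Necap1 rose and Dab2, Eps15 and Picalm fell with MSNP. The calls of Cltb, Sh3gl1 and Sh3gl3 with MSNP were kept in 17 of 22, 18 of 22 and 16 of 21 alternative analyses, and that of Eea1 in 21 of 22, being lost with only the 6 libraries.

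Over all 8 lists, 16 of the 82 genes rose and 11 fell with MSNP, 32.9% beside 22.8% of all genes. Among the 14284 genes kept by the stricter filterByExpr filter, 33.1% were called with MSNP, near the 32.9% of these lists in the main fit. The main fit also kept list genes with few counts, so these 2 shares come from different sets of genes. The stricter filter gave 8.97% with HMSNP, 2.86% with SNP50, 1.85% with SNP100 and 28.7% for HMSNP against MSNP. With HMSNP 5 list genes rose, among them Dab2, Ehd4 and Itsn1, and 6 fell, 13.4% beside 5.16%. The Itsn1 difference went from 0.69 to 0.22 on the log2 scale with the length offset and lost its call, which was also lost without HMSNP replicate 1 or 2 and with only the 6 libraries. With SNP50 1 rose and 4 fell, 6.1% beside 1.41%, and with SNP100 Cav1 alone fell, 1.22% beside 0.912%. All of these list counts include the 10 genes themselves. Without them, 73 list genes were tested, of which 1 rose and 1 fell with SNP50 (2.74%) and 0 were called with SNP100. The shares without them were 31.5% with MSNP, 13.7% with HMSNP and 34.2% for HMSNP against MSNP. Between HMSNP and MSNP 14 genes were higher and 15 lower, 35.4% beside 20.2%, with Dab2 at 316 ± 6.28 against 128 ± 4.56 CPM, Snx33 at 8.24 ± 0.309 against 20.8 ± 1.41 CPM and Rab4a at 2.26 ± 0.121 against 4.18 ± 0.402 CPM. No flotillin or stomatin gene was called with MSNP, and Stom fell with HMSNP, a call kept in 7 of 22 alternative analyses.

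**Figure D5:**
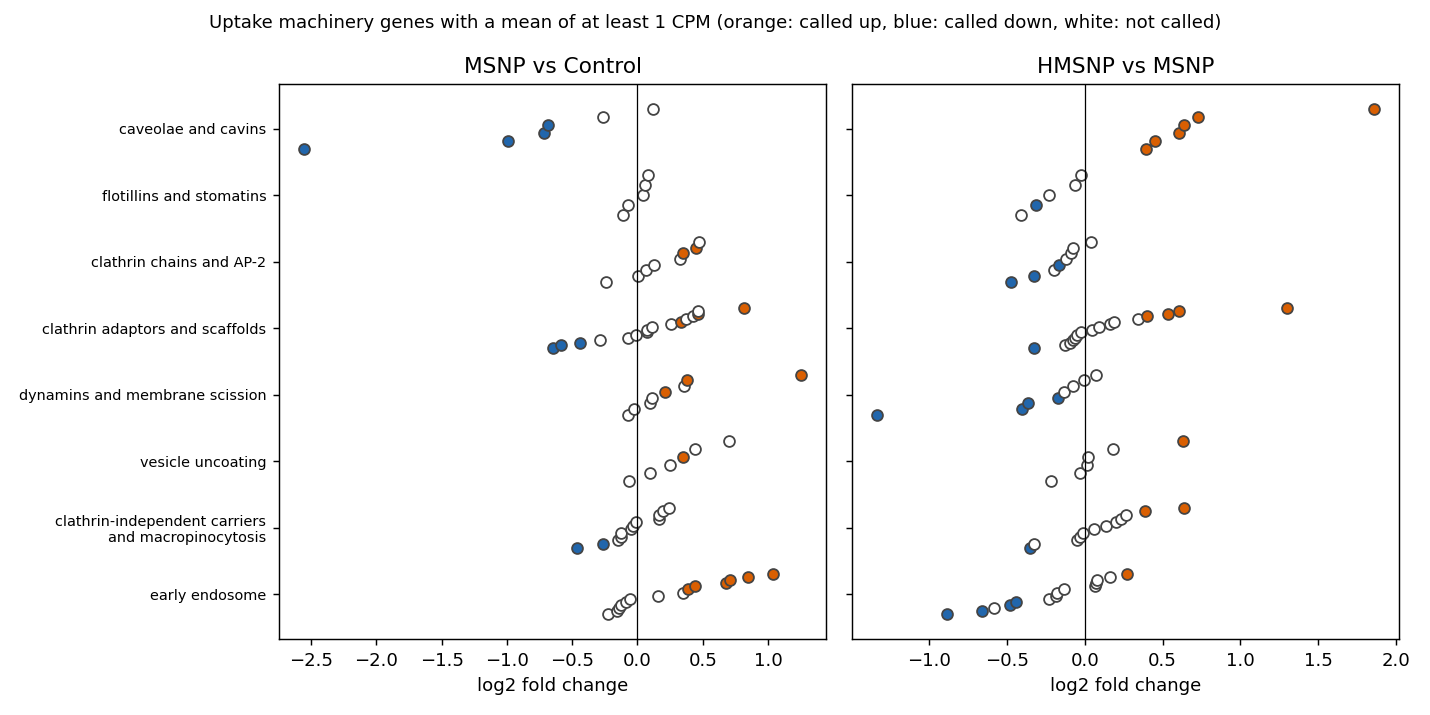
Log2 differences for MSNP against controls and for HMSNP against MSNP in the 8 uptake lists, 1 point per gene with a mean of at least 1 CPM, orange where called higher, blue where called lower and white where not called. With MSNP, the called caveola genes lay below 0 and the 6 called early endosome genes above 0.

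Across the 15 libraries, the log2 CPM of Cav1 had a Pearson r of 0.937 with Cav2 and 0.919 with Ehd1, and Cltc had 0.908 with Dnm2. Among 11539 genes, those most like Cav1 were C5ar1 (r = 0.962), Tsku (0.961), Tfe3 (0.959), Sfxn3 (0.959) and Akr1b8 (0.958). C5ar1 encodes a complement receptor and Tfe3 a transcription factor of lysosomal genes. C5ar1 went from 145 ± 18.0 CPM in controls to 48.6 ± 1.80 with MSNP and 117 ± 9.51 with HMSNP, and Tfe3 from 160 ± 4.52 to 116 ± 1.99 and 149 ± 7.85 CPM. Those most like Ehd1 were Tfe3 (0.971), Smim3 (0.968), Plaur (0.968), Akr1b8 (0.965) and C5ar1 (0.958). The points of these correlations share group and library, so they are given as descriptions over 15 libraries.

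Macrophage markers also moved with MSNP, where 6 of 10 fell, 1 rose and the summed level was 13488 to 14449 CPM against 16187 to 20484 CPM in the controls. Of all tested genes, 11% were called lower and 11.8% higher with MSNP, and with filterByExpr 33.1% were called either way. The summed level of 6 endothelial markers, a cell type rich in caveolae, was 8.36 to 10.3 CPM with MSNP against 2.63 to 5.75 CPM in the controls, opposite in direction to Cav1. Nearly all of that sum was Vwf, at 8.0 to 10.1 CPM with MSNP and 2.24 to 5.26 CPM in the controls, while Emcn was at 0. Fibroblast, epithelial and adipocyte sums stayed at or below 0.0889 CPM in every library. The part of these shifts in the caveolar gene values was not tested.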

How the data were processed

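Groups were taken from the sample labels, doses, diameters and times from the study's methods. Directional libraries of poly(A) RNA were read as pairs of 150 bases. The deposited table holds raw counts per gene and library on GRCm39, not normalized, with replicates kept apart. The submitters' notes name cutadapt 1.16, STAR 2.7.9a and featureCounts 1.6.3 without their order, while the annotation, the strand setting and whether reads or pairs were counted are not given in the sources used here. Symbols, positions and lengths came from GENCODE vM39. Genes reaching a sum of 10 counts were tested with edgeR 4.0.16 in R 4.3.3 (TMM, 1 model of all libraries, quasi-likelihood test, Benjamini-Hochberg adjustment, threshold 0.05), and the SE came from the log2 difference and its F statistic. The scripts were tested on simulated data. Alternatives were DESeq2 1.42.0, other filters, the 6 libraries compared, a replicate block, an offset for transcript length and leaving out each library. Named list genes were the 3 most changed called genes in each direction with a mean of at least 1 CPM, and likeness was Pearson's r over log2 CPM. Genes named outside that rule, such as Cltb, Ap2a1, Stom and Vwf, complete counts in the text and were chosen after their values were seen. The 10 genes and the lists were chosen with earlier results of these data known. Counting error limits the precision for genes with few counts, such as Cavin1.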

Additional observations from a re-analysis of the deposited data

How the results depend on the processing

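Over the alternatives no call reversed, among the 10 genes or among the other list genes called. Among values of the 10 genes under the alternatives, 1316 kept their side of the threshold, 33 newly passed it and 30 no longer did. Of the other list genes' values, 1154 stayed past it and 163 did not. Cav1, Cav2 and Ehd1 with MSNP against the controls, Cav1 and Cav2 for MSNP against SNP100, and the 4 genes called for HMSNP against MSNP were past the threshold in all 22 alternatives. Cav1 with SNP100 and with SNP50 lost its call only when the 6 libraries compared were fitted alone.

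With only the 6 libraries compared, the number of the 10 genes called was 0 with SNP100, 0 with SNP50, 0 with HMSNP and 7 for MSNP against SNP100, and the number of list genes was 0 with SNP100, 0 with SNP50, 0 with HMSNP and 50 for HMSNP against MSNP. In these fits 40.9% of all genes were called both for MSNP against SNP100 and for HMSNP against MSNP. Under DESeq2 the 10 genes had 2 calls with SNP100 and 5 for MSNP against SNP100, and the list genes 4 with SNP100 and 19 with HMSNP. With filterByExpr there were 2 list genes with SNP100 and 5 of the 10 genes for MSNP against SNP100. With no filter there were 1 of the 10 genes and 2 list genes with SNP50. With the length offset the list genes called were 3 with SNP100, 8 with SNP50 and 18 with HMSNP, and the 10 genes had 2 calls with HMSNP and 6 for MSNP against SNP100.

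Leaving out each library gave between 1 and 3 of the 10 genes with SNP100, 1 and 4 with SNP50, 4 and 5 with MSNP, 0 and 4 with HMSNP, 0 and 0 for SNP50 against SNP100, 2 and 7 for MSNP against SNP100, and 4 and 5 for HMSNP against MSNP. List genes ranged from 1 to 7 with SNP100, 1 to 31 with SNP50, 23 to 37 with MSNP, 4 to 40 with HMSNP and 25 to 44 for HMSNP against MSNP. The 31 came without Control replicate 3, when 18.9% of all genes were called, and the 40 without Control replicate 2, when 25.2% were.

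Replicate numbers showed no clear pairing of the samples. Over 30 same-numbered pairs the correlation of deviations ran from -0.517 to 0.573, with a median of 0.0156 and 10 pairs over 0.1. Of 15 libraries, 6 correlated best with their own number. Deviations from a mean of 3 libraries sum to 0 within each group, so these values cannot exclude a pairing. With the replicate block, the 10 genes had 1 call and the list genes 2 calls with SNP50, and the genes called in the whole table were 142 with SNP100, 180 with SNP50, 4390 with MSNP and 884 with HMSNP, against 181, 280, 4527 and 1024 without it. Over all genes, DESeq2 called 496 with SNP100, 680 with SNP50 and 1945 with HMSNP.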
